A study of Oryza sativa with 8 samples.

Results

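Iron and metal homeostasis was followed through 4 rice genes: the transcription factor bHLH063 (LOC4332972), the metal transporters Nramp1 (LOC4342862) and OsYSL2 (LOC4330161), and the metallothionein MT2B (LOC4326409). Each gene was read from the brightest probe lying in that single RefSeq gene, out of 14661 genes that could be tied to such a probe. The 4 genes had been picked with the values of these arrays in view, so their levels and differences are given as a description, without a test. RNA was measured on 8 arrays, 2 biological replicates for each of 4 lines. D62-A/MB (D-type cytoplasm), ZS97-A/MB (WA-type cytoplasm) and XQZ-A/MB (DA-type cytoplasm) are cytoplasmic male sterile (CMS) lines, obtained by repeated backcrossing of a sterile line to Meixiang B. Meixiang B (MB) is the fertile maintainer line. The CMS lines therefore share most of the nuclear genome of MB and differ from it in cytoplasm and in whatever donor nuclear segments were left by the backcrosses. By the markers of the study, the share of the MB nuclear genome was lowest in ZS97-A/MB and highest in XQZ-A/MB. Cytoplasm and donor segments of a line cannot be told apart here. Material was field-grown and taken at the uninucleate microspore stage. The labels name young panicles, the methods name anthers, and which of them was hybridized is not known here.

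Plants handle iron, zinc, copper and manganese as a connected set, because the same metals that serve enzymes of respiration and photosynthesis become toxic when free. NRAMP proteins carry divalent metals such as iron and manganese across membranes, and rice Nramp1 has been described as a transporter of iron and cadmium. YSL proteins carry metals bound to the chelator nicotianamine or to phytosiderophores, and OsYSL2 has been described as a carrier of iron and manganese bound to nicotianamine in the phloem. bHLH063 is a basic helix-loop-helix factor of the iron deficiency response of rice. RefSeq lists both IRO3 and OsIRO2 as its other names, which elsewhere stand for different regulators of that response. Metallothioneins are small cysteine-rich proteins that bind metals and scavenge reactive oxygen species. In the anther, iron is needed by the mitochondria of the tapetum, the nurse tissue of the pollen.

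The only sequences in the sources used here that belong to one of these transcripts are the primers designed for quantitative RT-PCR of locus LOC_Os07g15460, which the study's annotation calls Nramp6 and whose values are those of the Nramp1 probe. They are shown because they identify the transcript meant by these divergent names. Both are written 5′ to 3′ in lower case, with no base marked.
Forward primer, 19 bases: cgtggctctgcttgtcaac
Reverse primer, 21 bases: gaggaggaaggatgaggagtc
A separate gene that RefSeq calls NRAMP6 (LOC4352640) is described among the other metal genes below.

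Some features of the arrays as a whole bear on the values. The replicate 2 arrays were brighter, with median intensities of 19.2 to 20.6, against 7.65 to 8.15 on the replicate 1 arrays. Differences between lines are therefore also given within each replicate number. Intensities at or below 16 were treated as 16, and 42.5 to 65.2% of the probes lay there on an array. The labels of 2 lines are in doubt: of 620 listed rows of log2 fold changes, 2 could be matched to these arrays within 0.005 with the columns as labelled, and 588 when the columns of XQZ-A/MB and D62-A/MB were exchanged. Values given for D62-A/MB and XQZ-A/MB are those of the arrays labelled so. Neither the level of ZS97-A/MB, nor its difference to the mean of the D62-A/MB and XQZ-A/MB arrays, nor the mean of the log2 values of the 3 CMS lines (the CMS mean) depends on this.

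The members fell into contrasting patterns. bHLH063, Nramp1 and OsYSL2 were brightest in ZS97-A/MB on both replicate numbers, at 2.10 to 2.77 times the mean of the other CMS lines. MT2B was dim in all 3 CMS lines and bright in MB. All 4 genes were above 16 on all 8 arrays.

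**Figure D1:**
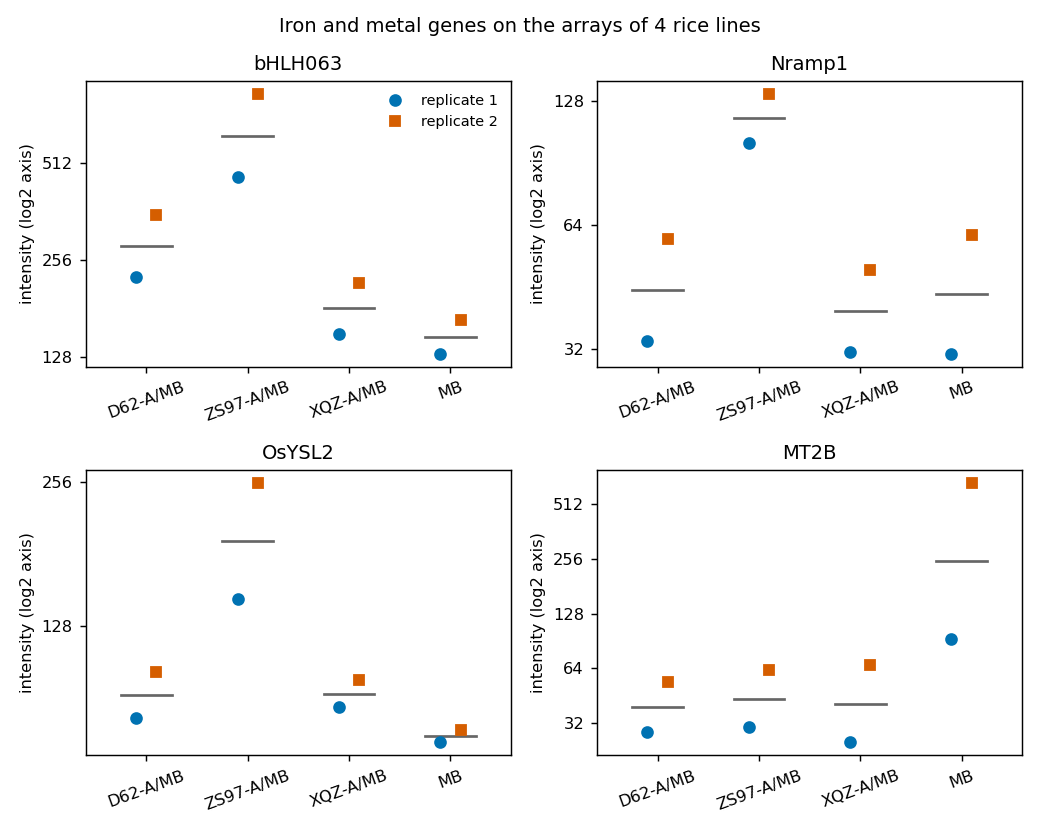
Intensity of bHLH063, Nramp1, OsYSL2 and MT2B (log2 axis) on each array of D62-A/MB, ZS97-A/MB, XQZ-A/MB and MB. Circles are replicate 1, squares replicate 2, and grey bars the mean of the log2 values (n = 2). The ZS97-A/MB arrays stood highest for bHLH063, Nramp1 and OsYSL2 within each replicate number, and the MB arrays stood highest for MT2B.

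The regulator bHLH063 had intensities of 226 and 352 for D62-A/MB, 463 and 838 for ZS97-A/MB, 151 and 217 for XQZ-A/MB, and 131 and 167 for MB. Both ZS97-A/MB arrays lay above all 6 other arrays, and the order of the lines was ZS97-A/MB, D62-A/MB, XQZ-A/MB and MB within both replicate numbers. Compared with MB, the log2 difference of ZS97-A/MB was 1.82 within replicate 1 and 2.33 within replicate 2, a mean of 4.21-fold. D62-A/MB differed from MB by 0.79 and 1.08 on the log2 scale, a mean of 1.91-fold. XQZ-A/MB differed from MB by 0.20 and 0.38, a mean of 1.22-fold, and by 0.03 without XQZ-A/MB replicate 2 or 0.12 without MB replicate 1. The spread left after line and replicate number was 0.15 log2 (SD), and each step in the order of the lines, the smallest being 0.29 between XQZ-A/MB and MB, was larger than it. With all arrays, bHLH063 was thus the only one of the 4 genes for which each line stood apart from the next by more than this spread and with the same sign within both replicate numbers.

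Nramp1 showed a ZS97-A/MB pattern with nothing graded below it. Its intensities were 33.4 and 59.3 for D62-A/MB, 101 and 133 for ZS97-A/MB, 31.4 and 49.9 for XQZ-A/MB, and 31.2 and 60.5 for MB. The ZS97-A/MB arrays lay above every other array, whereas the arrays of D62-A/MB, XQZ-A/MB and MB overlapped. ZS97-A/MB exceeded MB by 1.70 and 1.14 log2 within replicates 1 and 2, a mean of 2.68-fold. D62-A/MB minus MB was 0.10 and -0.03, and XQZ-A/MB minus MB was 0.01 and -0.28 on the same scale. With a residual spread of 0.17 log2 (SD), the order of D62-A/MB, MB and XQZ-A/MB could not be told. The CMS mean minus MB was 0.44 log2, with the D62-A/MB and XQZ-A/MB means at 0.04 and -0.13, and it was -0.04 without MB replicate 1. Within replicates 1 and 2 it was 0.60 and 0.28.

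OsYSL2, the second transporter, had intensities of 81.7 and 102 for D62-A/MB, 146 and 255 for ZS97-A/MB, 86.3 and 98.1 for XQZ-A/MB, and 72.8 and 77.2 for MB. The ZS97-A/MB arrays were again the 2 brightest, and both MB arrays lay below all the CMS arrays. The difference of ZS97-A/MB to MB was 1.00 log2 within replicate 1 and 1.73 within replicate 2, a mean of 2.57-fold. For D62-A/MB the differences were 0.17 and 0.41, and for XQZ-A/MB 0.25 and 0.35, each a mean of about 0.3 log2 (0.29 and 0.30). These 2 lines changed places between the replicate numbers and did not differ beyond the residual spread of 0.23 log2 (SD). The size of the ZS97-A/MB difference rested on the array used: without ZS97-A/MB replicate 2 it was 0.96 log2, and without ZS97-A/MB replicate 1 it was 1.77.

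Set against the mean of D62-A/MB and XQZ-A/MB, ZS97-A/MB was higher by 1.33 and 1.60 log2 for bHLH063, by 1.65 and 1.29 for Nramp1, and by 0.80 and 1.35 for OsYSL2 within replicates 1 and 2. The mean fold differences were 2.76, 2.77 and 2.10. By this mean difference Nramp1 ranked 50, bHLH063 54 and OsYSL2 220 from the top of the 25481 probes above 16 on at least 1 array. A difference of at least 2-fold within both replicate numbers was shown by bHLH063 and Nramp1, and by 0.323% of all probes or 0.518% of those above 16 on at least 1 array. Against MB, ZS97-A/MB was at least 2-fold higher within both numbers for all 3 genes, as it was for 0.598% of all probes or 0.958% of those above 16. The genes were chosen on these contrasts, so nothing is read from these shares.

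**Figure D2:**
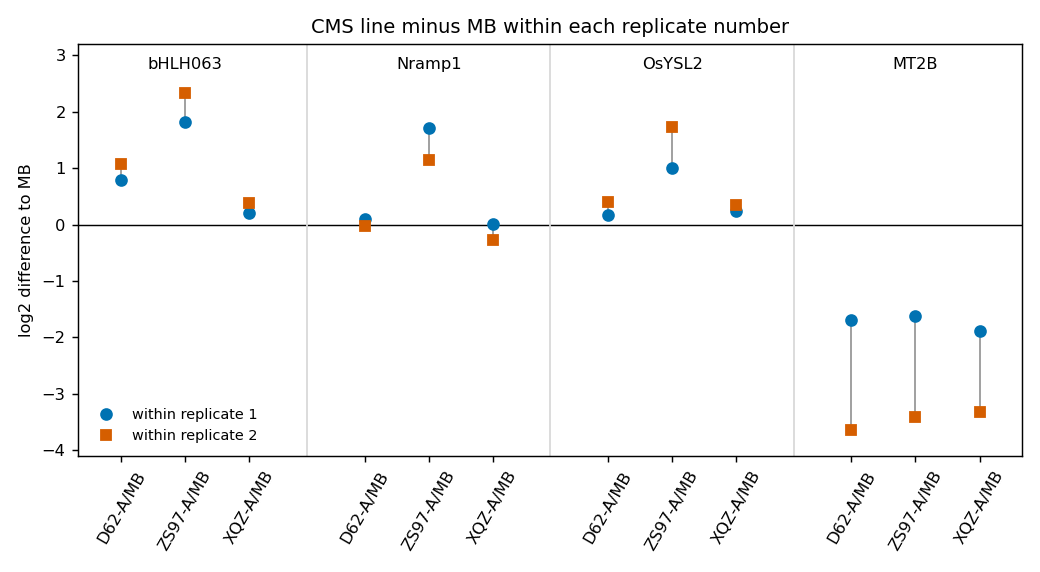
Log2 difference of each CMS line to MB for the 4 genes, within replicate 1 (circles) and within replicate 2 (squares), with a grey line joining them. ZS97-A/MB stood 1.00 to 2.33 above MB for bHLH063, Nramp1 and OsYSL2, and all CMS lines stood at differences of -3.64 to -1.62 for MT2B.

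MT2B, the metal-binding member, ran the other way. Its brighter probe gave 28.7 and 54.0 for D62-A/MB, 30.3 and 63.0 for ZS97-A/MB, 25.1 and 67.0 for XQZ-A/MB, and 93.1 and 671 for MB. All 6 CMS arrays lay below both MB arrays. The CMS lines did not differ from each other beyond the residual spread of 0.63 log2 (SD), and their order changed between the replicate numbers. ZS97-A/MB minus the mean of D62-A/MB and XQZ-A/MB was 0.17 and 0.07 log2, against 0.80 to 1.65 for the other 3 genes. By the difference of the CMS mean to MB, MT2B ranked 38 from the bottom of the 25481 probes. It was at least 2-fold lower within both replicate numbers, as were 0.732% of all probes or 1.17% of those above 16.

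The size of the MT2B difference depended on the MB arrays. Replicate 2 exceeded replicate 1 by 0.91 to 1.42 log2 in the CMS lines for this probe, and by 2.85 log2 in MB. The CMS mean minus MB was -1.17 log2 without MB replicate 2 and -4.02 without MB replicate 1. These values set 1 MB array against both replicate numbers of the CMS lines, so the shift between the numbers enters them. Within replicates 1 and 2 the CMS mean minus MB was -1.74 and -3.46 log2. A second, dimmer probe of MT2B gave 29.8 and 79.5 for D62-A/MB, 30.6 and 83.5 for ZS97-A/MB, 36.6 and 116 for XQZ-A/MB, and 54.4 and 429 for MB. On that probe the CMS mean fell by 0.76 log2 below MB within replicate 1 and by 2.23 within replicate 2. Both probes had the same direction within both numbers, and on the dimmer one the replicate 2 arrays of the CMS lines were brighter than MB replicate 1. The name needs care: RefSeq gives LOC4326409 the names MT2B and OsMT2c, and gives OsMT2b as another name of LOC4337596, which has no probe.

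Some markers of anther tissue moved with MT2B. The tapetal lipid transfer gene OsC6 had 32.1 and 84.9 for D62-A/MB, 20.8 and 123 for ZS97-A/MB, 33.2 and 69.5 for XQZ-A/MB, and 415 and 2063 for MB. OsC4, another such gene, had 138 and 260 for D62-A/MB, 71.5 and 243 for ZS97-A/MB, 33.7 and 78.0 for XQZ-A/MB, and 661 and 1263 for MB. Over the 7 tapetum and anther markers that had a probe, the summed intensity ranged from 253 to 697 on CMS arrays and was 1285 and 3640 on the MB arrays. OsC6 and OsC4 made up 1076 and 3326 of the MB sums, and the other 5 markers summed to 173 to 332 on the CMS arrays against 209 and 314 on the MB arrays. GAMYB, a transcription factor of the tapetum, was the largest part of the sum of those 5 on each array. GAMYB did not share the direction of MT2B. It had 150 to 276 on the CMS arrays and 168 and 188 on the MB arrays, with a CMS mean minus MB of 0.12 log2. Of these markers UDT1 was under 16 on all arrays, and MSP1, TDR and PTC1 were at or under 16 on both MB and CMS arrays of replicate 1. Within replicate 2, MSP1, TDR and PTC1 were lower in each CMS line than in MB. Their CMS mean minus MB there was -1.36, -1.64 and -0.56 log2, with most of these CMS values set to 16. The sum of 3 stamen and lodicule MADS-box genes was 530 to 1023 on the CMS arrays and 869 and 1471 on the MB arrays, with a CMS mean minus MB of -1.07 log2 for MADS16. The sum of 2 carpel and ovule genes was below that of MB within each number, with -0.73 log2 for DL. The part of all these markers in the MT2B difference was not tested, and in such bulk samples fewer cells of a type and less RNA per cell cannot be told apart. The summed intensity of the 6 lemma and palea MADS-box genes, 779 to 1304 in D62-A/MB and XQZ-A/MB, 1112 and 1702 in ZS97-A/MB and 1057 and 1230 in MB, was highest in ZS97-A/MB within each replicate number. Its part in the ZS97-A/MB pattern of bHLH063, Nramp1 and OsYSL2 was not tested. The 6 genes did not move alike: MADS18, at 476 and 648 for ZS97-A/MB, was highest there within each number, whereas MADS6 was lowest there, at 48.9 and 97.2.

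**Figure D3:**
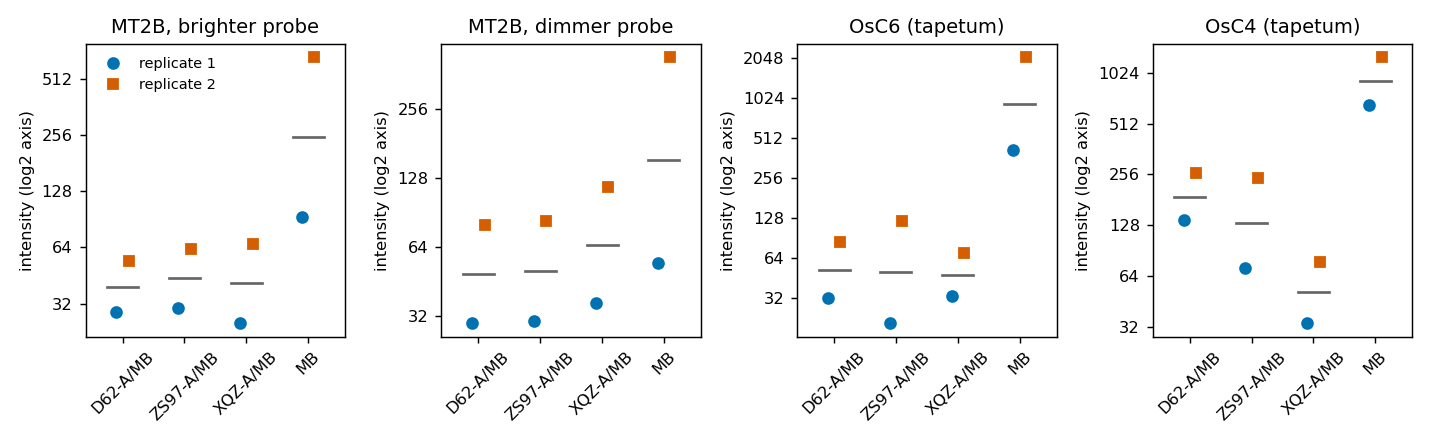
Intensity (log2 axis) of both MT2B probes and of the tapetum markers OsC6 and OsC4 on each array of D62-A/MB, ZS97-A/MB, XQZ-A/MB and MB, with circles for replicate 1, squares for replicate 2 and grey bars for the mean of the log2 values. MB replicate 2 is the brightest array in each panel, at 671 for the brighter and 429 for the dimmer MT2B probe.

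The profiles of the members were compared over the 8 arrays after centring each replicate number, as a description of arrays that share lines and labels. bHLH063 and OsYSL2 were most alike, with a Pearson correlation of 0.94, and both were less like Nramp1 (0.88 each). MT2B correlated with bHLH063 by -0.57, with OsYSL2 by -0.51 and with Nramp1 by -0.21. Among 1610 named genes that could be compared, OsYSL2 was 24th in likeness to bHLH063 and 36th in likeness to Nramp1. With 8 arrays of 4 lines these values describe the arrays only.

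For each member the 5 named genes of most similar profile are given. For bHLH063 they were the heat shock factor HSF04 (r = 0.98), the protein kinase CIPK26, the protein phosphatase OsPP2C60, the MADS-box gene FDRMADS8 and the general transcription factor subunit TFIIAy (0.97). Nramp1 was matched by the potassium transporter HAK5 (r = 0.99, above 16 on 3 arrays), the phosphatase OsPP2C41, the chlorophyll b synthesis enzyme CAO, the epimerase PPE and the thioredoxin OsTrx18 (0.97). OsYSL2 was matched by the zinc finger gene OsSAP16 (r = 0.99), the phenylpropanoid enzyme Os4CL4, FDRMADS8, AOX1 and the glutaredoxin GRXS6 (0.97). AOX1 encodes alternative oxidase, the mitochondrial enzyme that bypasses the cytochrome pathway, and its log2 difference of ZS97-A/MB to the other CMS lines was 1.18. For MT2B they were PLA2-III, a phospholipase A2 (r = 0.99), AAH, HOX33, BGLU4 and AtMAP70-1 (0.98). These 5 were above 16 on only 2 to 5 arrays, whereas all but HAK5 of the genes matched to the other members were above 16 on all 8.

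**Figure D4:**
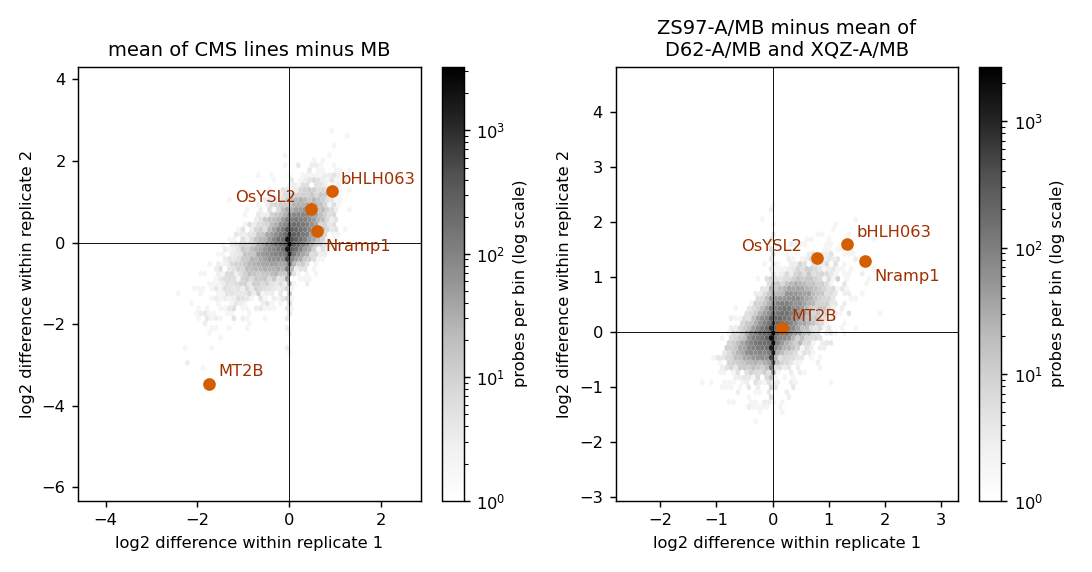
Log2 differences of the 25481 probes above 16 on at least 1 array, within replicate 1 (x axis) and within replicate 2 (y axis), for the CMS mean minus MB (left) and for ZS97-A/MB minus the mean of D62-A/MB and XQZ-A/MB (right). Grey shading is the number of probes per bin on a log scale, and the 4 members are marked: MT2B lies at -1.74 and -3.46 on the left, and Nramp1, bHLH063 and OsYSL2 lie at the upper right on the right.

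The wider set of metal genes was then examined to place the members among their relatives. Lists of transporters, chelator enzymes and metallothioneins held 68 annotated genes, of which 48 had a probe, the 4 members among them. Of the other 44, 16 were above 16 on all arrays, 13 on some and 15 on none. In the unpaired limma fit with Benjamini-Hochberg adjustment over all probes, 0 of the 44 reached an adjusted p under 0.01 with a 2-fold change in any of 5 contrasts, and in the background 0.00245% of all probes were called lower in each CMS line against MB and 0.00490% in the CMS mean against MB. At an unadjusted p under 0.05 without a fold limit, that fit had 2 of the 44 lower and 3 higher in the CMS mean against MB, and 1 higher in ZS97-A/MB against the other CMS lines. These are 11.4% and 2.27% of the 44, against 4.54% and 3.05% of all probes. The 2 lower genes include YSL11, which was set to 16 on all CMS arrays and had 18.2 on each MB array. With the replicate number as a block and the dimmer probes removed, 24 of the 44 were tested and again 0 were called, against 1.44% of all probes called lower and 0.382% called higher in the CMS mean. For D62-A/MB 0.0294% were called lower, for ZS97-A/MB 0.838% were called lower and 0.872% higher, for XQZ-A/MB 1.76% were called lower and 0.323% higher, and 0% were called in ZS97-A/MB against the other CMS lines. In the CMS mean that fit had 2 of the 24 lower and 3 higher at an unadjusted p under 0.05, or 20.8%, against 26.5% of all probes tested. The p-values of the unpaired fit measure the spread between 2 replicates a line. Those of the blocked fit measure what is left of that spread once the replicate number is taken out. Over the 16 genes above 16 on all arrays, the median log2 difference of the CMS mean to MB was -0.001, against 0.079 over the 12320 probes above 16 on all arrays.

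Of the 44 other metal genes, YSL12 and YSL13 had the widest differences of the CMS mean to MB. They encode metal-chelate transporters of the family of OsYSL2 and are direct neighbours on chromosome 4, with 0 annotated genes between them. YSL12 had 77.2 and 96.2 for D62-A/MB, 186 and 121 for ZS97-A/MB, 72.5 and 75.5 for XQZ-A/MB, and 48.1 and 20.8 for MB. YSL13 had 97.7 and 187 for D62-A/MB, 186 and 163 for ZS97-A/MB, 135 and 193 for XQZ-A/MB, and 68.9 and 26.1 for MB. All CMS arrays were above both MB arrays for both genes. The CMS mean minus MB was 1.64 log2 for YSL12 (SE 0.28, adjusted p = 0.0153, limma with the replicate number as a block) and 1.88 for YSL13 (SE 0.40, adjusted p = 0.0305), against adjusted p of 0.648 and 0.728 in the unpaired limma fit. For ZS97-A/MB minus MB the blocked limma fit gave YSL12 2.24 log2 with an adjusted p of 0.0124. None of these passed 0.01. In the blocked limma fit without MB replicate 1, both passed in the CMS mean, with adjusted p of 0.00949 for YSL12 and 0.00681 for YSL13. Without D62-A/MB replicate 1 YSL12 passed in that contrast with an adjusted p of 0.00561. The differences were wider on replicate 2, where MB was dimmest: within replicates 1 and 2 they were 1.07 and 2.20 log2 for YSL12 and 0.97 and 2.79 for YSL13. Without MB replicate 2 the same fit gave 1.07 log2 for YSL12 (limma adjusted p = 0.0995) and 0.97 for YSL13 (adjusted p = 0.162). Their neighbour YSL11 was at 6.29 to 13.7 on the CMS arrays and at 18.2 on each MB array.

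Of the other YSL genes, YSL6, a manganese-nicotianamine transporter, and its neighbour YSL5 were above 16 on all arrays, with 147 to 255 and 26.9 to 42.9 on the CMS arrays and 228 to 323 and 29.8 to 42.5 on the MB arrays. YSL15, which takes up iron-phytosiderophore complexes in roots, was below 16 on all arrays, and so were YSL1, YSL3, YSL4, YSL7, YSL8 and YSL17.

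Within the NRAMP family the pattern of Nramp1 had a partial counterpart in NRAMP2. NRAMP2 had 79.7 and 68.8 for D62-A/MB, 85.9 and 124 for ZS97-A/MB, 47.0 and 59.1 for XQZ-A/MB, and 60.7 and 60.1 for MB. The ZS97-A/MB array was the brightest within each replicate number, and the 2 lowest arrays were those of XQZ-A/MB. ZS97-A/MB exceeded the mean of the other CMS lines by 0.73 log2 (SE 0.17, adjusted p = 0.0677, limma with the replicate number as a block). The adjusted p was higher still in the unpaired limma fit, and neither fit called it. NRAMP3, which distributes manganese in the shoot, had 35.4 and 46.4 for D62-A/MB, 45.6 and 53.4 for ZS97-A/MB, 31.0 and 35.1 for XQZ-A/MB, and 50.8 and 63.9 for MB. Each CMS array was dimmer than the MB array of its number. The CMS mean minus MB was -0.49 log2 (SE 0.11, adjusted p = 0.0314 in limma with the block, and 0.954 in the unpaired limma fit). NRAMP6 stayed between 21.3 and 35.4 in the CMS lines, against 24.7 and 26.4 in MB. NRAMP5, the root carrier of manganese, iron and cadmium, lies near Nramp1 on chromosome 7, with 5 annotated genes between, and was below 16 on all arrays, at 6.56 to 12.9.

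The genes that make or feed the chelator pathway were dim. The nicotianamine synthase genes NAS1, NAS2 and NAS3 were under 16 on all replicate 1 arrays, and NAS2 reached 35.2 to 45.7 in the CMS lines and 42.1 in MB on the replicate 2 arrays. NAAT1, of phytosiderophore synthesis, and the vacuolar iron carrier VIT2 were under 16 on all arrays. The ferrous iron carrier IRT1 was under 16 on the replicate 1 arrays and at 30.6 to 45.1 in the CMS lines and 46.3 in MB on replicate 2, and IRT2 was under 16 throughout.

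No zinc, copper or manganese carrier of the lists was called in these fits. ZIP2 had 41.9 and 101 for D62-A/MB, 29.8 and 119 for ZS97-A/MB, 20.1 and 71.3 for XQZ-A/MB, and 58.5 and 106 for MB, and its difference of the CMS mean to MB was -0.58 log2 (SE 0.22, adjusted p = 0.152, limma with the block). ZIP1 and ZIP6 differed from MB by 0.12 and 0.05 log2 in the CMS mean, MTP5 by -0.15 and the copper ATPase HMA4 by 0.06. The adjusted p of these 4 genes in the unpaired limma fit was 1.0. MTP7, whose family moves metals out of the cytosol, was at 53.8 to 92.7 in D62-A/MB and ZS97-A/MB and at 155 and 174 in XQZ-A/MB, against 116 and 98.4 in MB.

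Of the other metallothioneins, 3 had a probe and none was called. MT4A ran in the opposite direction to MT2B. It had 23.2 and 27.4 for D62-A/MB, 29.5 and 37.1 for ZS97-A/MB, 28.2 and 43.0 for XQZ-A/MB, and 16.5 and 12.7 for MB. All CMS arrays were above both MB arrays, with MB replicate 2 at the floor of 16. The CMS mean minus MB was 0.92 log2 (SE 0.14, adjusted p = 0.0117 in limma with the block, and 0.612 in the unpaired limma fit). MT4 had 31.2 to 178 on the CMS arrays and 35.9 and 178 on the MB arrays, with a mean difference of -0.14 log2. MT4B had 13.2 to 109 on the CMS arrays and 39.2 and 66.6 on the MB arrays, and its differences to MB changed sign between the replicate numbers. The other metallothionein genes of the annotation, 5 in number, had no probe.

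**Figure D5:**
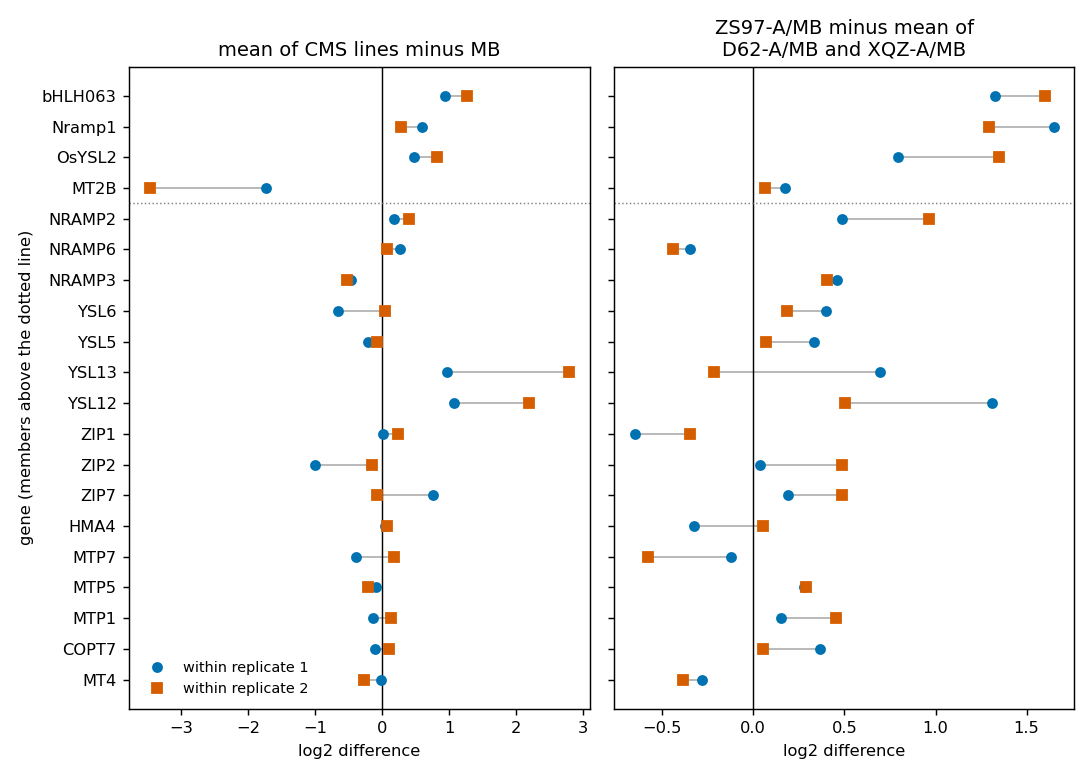
Log2 differences within replicate 1 (circles) and replicate 2 (squares) for the 4 members, above the dotted line, and for the 16 other metal genes above 16 on all arrays, for the CMS mean minus MB (left) and ZS97-A/MB minus the mean of D62-A/MB and XQZ-A/MB (right). YSL12 and YSL13 stand out on the left at mean differences of 1.64 and 1.88, and of the other genes NRAMP2 and YSL12 are furthest to the right on the right, at 0.73 and 0.91.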

How the data were processed

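The authors deposited linear signal intensities of 40832 probes on rice gene arrays. The labels and the title of a second deposited table name MAS5, whereas the methods name Robust Multichip Analysis. The values are therefore taken as those of MAS5. Since the medians differed between the replicate numbers, the values were not quantile normalized over all 8 arrays together. The second deposited table held 98 control rows more and was otherwise equal (largest difference 0). Levels of different probes are not read as relative amounts of RNA. Where a gene is called dim or bright, or a part of a sum, only intensities are described. Sums over marker probes are given only to follow 1 list across arrays. The members and the gene lists were chosen with earlier results of these data known.

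Intensities under 16 were set to 16 and transformed to log2. Probes were tied to genes through the supplied probe annotation and RefSeq names of assembly ASM3414082v1, which was used for names and gene order only: 15295 probes lay in 1 gene, 436 in several and 25101 in none. Words in gene descriptions could not be used, since the table has none. For 607 genes with several probes the brightest mean was taken. The unpaired fit was limma 3.58.1 in R 4.3.3, a coefficient per line over all arrays, with Benjamini-Hochberg adjustment over all probes, called at an adjusted p under 0.01 and 2-fold as in the methods. Deviations of replicate 2 from replicate 1 correlated by 0.738 to 0.846 in 6 of 6 pairs of lines over 25481 probes, so the replicate numbers pair the arrays. A fit with the replicate number as a block and the 20416 brighter probes is given beside it. The residual spread of a member is the SD after line and replicate number are removed.

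Named genes are the members, list genes called (none), up to 3 per list with the widest difference of the CMS mean to MB among those above 16 on both arrays of a line with 1 sign within both numbers, and the 5 genes with a symbol of most similar profile for each member. Other list genes and the markers were named after their values were seen. Alternatives were quantile normalization, no floor with 1 added, the dim filter, a variance trend, only the lines compared, the methods' t test, other thresholds, the mean over probes and leaving out each array. Promoter motifs were not analysed here. Tables and figures used Python 3.11.15, numpy 2.4.6, pandas 2.3.3 and matplotlib 3.10.9. The number of arrays limits the precision.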

Additional observations from a re-analysis of the deposited data

Results flagged for a closer look

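Genes of the metal lists whose CMS lines lay on opposite sides of MB within both replicate numbers are given here, and these differences were not tested. For NRAMP2, D62-A/MB and ZS97-A/MB were above MB and XQZ-A/MB was below it, and the log2 differences to MB differed by 0.49 between D62-A/MB and XQZ-A/MB and by 0.97 between ZS97-A/MB and XQZ-A/MB. For the MTP7 gene, XQZ-A/MB was above MB and both other CMS lines were below it, by differences of 1.22 against D62-A/MB and 0.96 against ZS97-A/MB. The MT4 gene had the other CMS lines below MB and XQZ-A/MB above it by 0.27 log2 within replicate 1 but by only 0.001 within replicate 2, where it equals MB for practical purposes, with differences of 0.33 against D62-A/MB and 0.50 against ZS97-A/MB. The XQZ-A/MB and D62-A/MB labels may be exchanged, as described above.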

How the results depend on the processing

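Under quantile normalization, without a floor and with the mean over probes, 60 of 60 member differences moved by less than the SD between replicates of a line, which includes the shift between replicate numbers. Against the smaller residual spread 2 of the 60 moved further: bHLH063 in ZS97-A/MB against the other CMS lines was 1.29 log2 with quantile normalization, and MT2B in XQZ-A/MB against MB was -1.92 with the mean over probes. Of the 60, 1 changed sign: the difference of MT2B between ZS97-A/MB and the other CMS lines was -0.02 log2 with the mean over both probes. Leaving out 1 array sets the other array of its line against both replicate numbers of the lines compared. The shift between replicate numbers therefore enters these values and adds to their moves. When single arrays were left out, 12 of 104 values moved further than that SD and 8 values of 4 small differences changed sign. Those were Nramp1 in D62-A/MB (-0.44 to 0.51), XQZ-A/MB (-0.61 to 0.34) and the CMS mean (-0.04 to 0.92) against MB, and MT2B in ZS97-A/MB against the other CMS lines (-0.41 to 0.65). The log2 difference of bHLH063 ranged from 0.03 to 0.55 for XQZ-A/MB minus MB, and that of OsYSL2 ranged from 0.96 to 1.77 for ZS97-A/MB minus MB and from 0.67 to 1.48 against the other CMS lines. That of MT2B ranged from -4.09 to -1.24 for D62-A/MB, -3.94 to -1.09 for ZS97-A/MB, -4.03 to -1.18 for XQZ-A/MB and -4.02 to -1.17 for the CMS mean, each against MB.

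The number of metal list genes called was 0 in each of the 5 contrasts under quantile normalization, without a floor, with the dim filter, with the variance trend, with only the lines compared and with the methods' t test. Over all probes these settings called at most 7 of 40832, in the CMS mean under quantile normalization. Without a floor, with the dim filter and with the variance trend they called 0. A count of 0 in so short a list therefore says little. With the replicate number as a block it was also 0, with all probes, with the dim filter, and with the dim filter and quantile normalization. The pairing thus changed no call in the list while all arrays were kept. Over all probes it did: in the CMS mean the block with the dim filter called 293 lower and 78 higher of 20416, against 0 with the dim filter alone. With quantile normalization added it called 45 lower and 2 higher, and with all probes 1 lower of 40832. The unpaired fit was also read at an adjusted p under 0.05 with no fold limit. The count was then 1 in each CMS line and in their mean against MB, the gene being YSL11, which lay at the floor on all CMS arrays. Of all 40832 probes that setting called 8 lower for D62-A/MB, and 8 lower and 6 higher for ZS97-A/MB. It called 9 lower and 1 higher for XQZ-A/MB, and 10 lower and 3 higher for the CMS mean. In the blocked limma fit with the dim filter, MT4A, YSL12, YSL13 and NRAMP3 were under 0.05 in the CMS mean, as given above. With single arrays left out, list genes were called only in blocked fits against MB. These were YSL12 and YSL13 without MB replicate 1, and YSL12 without each D62-A/MB array in turn. Many other probes were called in the same fits. Where 1 array of a line is left its spread is taken from the other lines, so no count is read from these fits.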
